A study of Homo sapiens with 9 samples.

Results

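The cytosolic and mitochondrial heat shock chaperones examined here are 10 genes named by symbol: HSPA1A, HSPA8, HSPH1, DNAJA1, DNAJB1, HSP90AA1, HSPD1, HSPE1, CHORDC1 and CRYAB. All 10 were found among the 56609 gene symbols of the expression table, and all 10 were tested, together with all other symbols that averaged 1 TPM or more (13968 in all). RNA was measured in 3 groups of 3 samples of MCF10A, an established human line of breast epithelial cells that does not form tumours. The high calcium group received 10 mM calcium and ionomycin, an ionophore that carries calcium across membranes and is labelled at 1 mM, for 16 h. The TGFb3 group received transforming growth factor beta 3, labelled TGFb3, at 10 nM for 16 h. The control group was untreated. Cells of all 3 groups grew in DMEM/F12 with horse serum, EGF, hydrocortisone, cholera toxin and insulin, so the controls also carried a glucocorticoid, a growth factor and a toxin that raises cyclic AMP. The labels name this single cell line for all samples and no heat treatment.

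Chaperones bind unfolded proteins and help them fold, and many of their genes are switched on by heat shock factor HSF1, which binds heat shock elements in promoters when unfolded proteins build up. In the cytosol, HSP70 proteins cycle on and off a client: J proteins bring the client and speed ATP hydrolysis, and exchange factors release the nucleotide. HSP90 takes over many clients for late folding steps, small heat shock proteins hold clients without using ATP, and in mitochondria HSPD1 forms a chamber for folding that HSPE1 closes as a lid. In cells that are not stressed these genes are also expressed at a steady level that serves newly made proteins.

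The values are TPM, a length-normalised share of the transcripts in a sample scaled to a total of 1000000, so the sequencing depth behind them is unknown. The replicates are not said to be separate cultures, so the p-values reflect how far these samples differ from each other and may rest on technical spread. Of 12 MCF10A epithelial markers 12 averaged at least 1 TPM. Their summed level was 8059 ± 176 TPM in high calcium, 9329 ± 660 TPM in TGFb3 and 4344 ± 140 TPM in the controls. In each treatment 10 of 12 were called higher, against 46.1% of all tested symbols in high calcium and 26.5% in TGFb3. The nuclear RNA MALAT1 averaged 424 ± 32.2 TPM in high calcium, 204 ± 12.4 TPM in TGFb3 and 158 ± 44.7 TPM in the controls, and NEAT1 averaged 82.0 ± 7.29 TPM in high calcium, 28.6 ± 2.02 TPM in TGFb3 and 33.1 ± 6.32 TPM in the controls. The part of these markers and nuclear RNAs in the results was not tested. Of 18 markers of other cell types 15 stayed under 1 TPM in every sample and 6 were listed at 0 in every sample; their summed level was 11.5 to 15.3 TPM in high calcium, 29.4 to 33.2 TPM in TGFb3 and 4.49 to 5.89 TPM in the controls, most of it from the fibroblast genes COL1A1 and DCN in the treated samples, and its part in the results was not tested. RNA of the mitochondrial genome made up 11.5% ± 0.371 of all TPM in high calcium, 22.7% ± 0.588 in TGFb3 and 22.7% ± 0.914 in the controls (SD, n = 3 each). Since TPM is a share, a gap in so abundant an RNA moves the values of all other genes. The median log2 difference over all tested symbols was 0.22 for high calcium against control, -0.06 for TGFb3 against control and 0.27 for high calcium against TGFb3. In bulk RNA, fewer cells with a transcript and less of it per cell cannot be told apart.

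Most of the 10 chaperone genes were lower after either treatment. In high calcium 8 of 10 fell and 2, DNAJB1 and CRYAB, rose; in TGFb3 8 of 10 fell, CRYAB rose and DNAJB1 did not pass the test. A gene is called here at an adjusted p under 0.05 from limma on log2(TPM + 1), with 3 samples in each group and p-values adjusted over all tested symbols. Over all tested symbols 46.1% were called higher and 17.0% lower in high calcium against control, and 26.5% higher and 33.1% lower in TGFb3 against control. The median log2 difference of the 10 genes was -0.93 in high calcium and -0.67 in TGFb3. Both comparisons use the same 3 control samples.

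Added together, the 10 genes gave 4175, 4060 and 4204 TPM in the high calcium samples, 4146, 3932 and 3936 TPM in the TGFb3 samples, and 7861, 8009 and 7475 TPM in the controls. This is 0.415% ± 0.00762 of all TPM in high calcium, 0.400% ± 0.0123 in TGFb3 and 0.778% ± 0.0276 in the controls (SD, n = 3 each). No treated sample came near a control, and the treatments lay close to each other. Without the RNA of the mitochondrial genome the shares were 0.468% ± 0.0103 in high calcium, 0.518% ± 0.0127 in TGFb3 and 1.01% ± 0.0278 in the controls. The sum hides a split: the 8 cytosolic genes gave 2528 ± 68.1 TPM in high calcium, 3051 ± 137 TPM in TGFb3 and 5361 ± 167 TPM in the controls, while the 2 mitochondrial genes gave 1618 ± 23.6 TPM in high calcium, 954 ± 20.2 TPM in TGFb3 and 2421 ± 110 TPM in the controls.

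**Figure D1:**
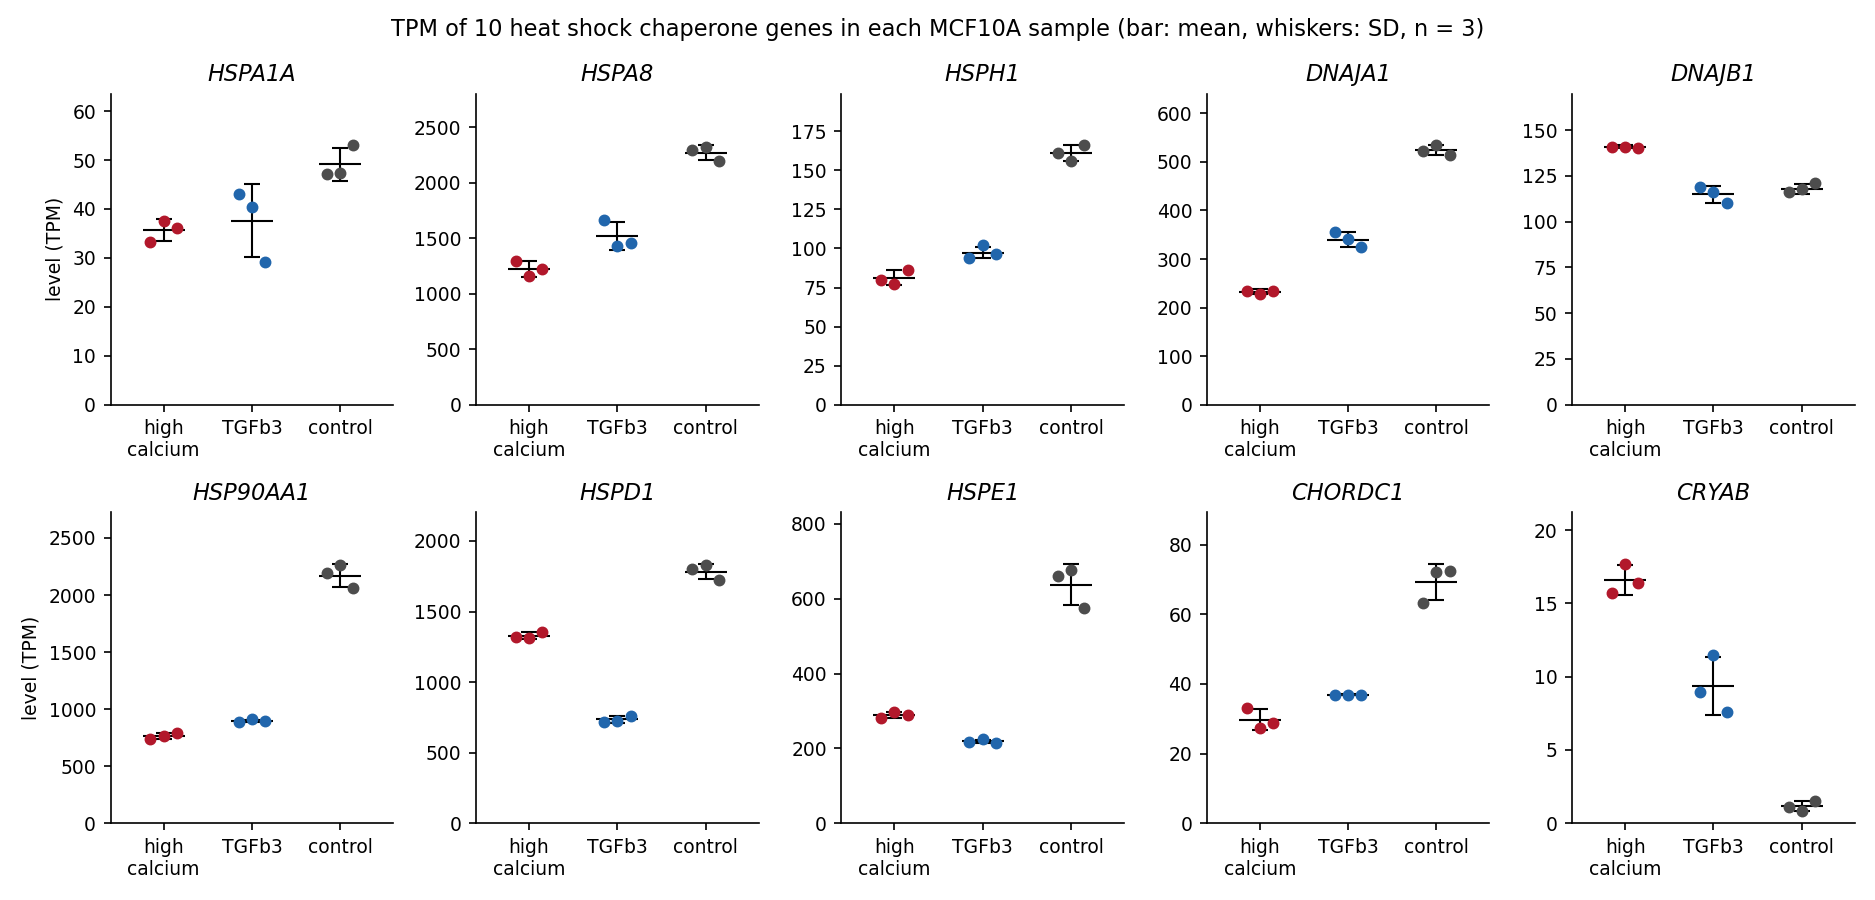
TPM of the 10 chaperone genes in each sample, on linear axes that start at 0; points are samples, the bar is the mean and the whiskers are the SD (n = 3 per group). CRYAB lies at 15.7 to 17.7 TPM in high calcium, 7.58 to 11.5 TPM in TGFb3 and 0.812 to 1.52 TPM in the controls, whereas 8 other genes have their highest levels in the controls.

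The groups were said not to overlap for a gene where every sample of a group lay on the same side of every sample of the other. All 10 genes met this in high calcium against control, 8 lower and 2 higher, against 19.6% lower and 49.4% higher of all tested symbols. In TGFb3 against control 8 genes were lower and 1 was higher without overlap, against 35.4% lower and 28.4% higher of all tested symbols.

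Promoter stretches are shown because many of the 10 genes are known HSF1 targets. Heat shock elements were therefore likely to be found in them, and the part of these elements in the levels was not tested. Sequences are from RefSeq (GRCh38.p14), 250 bases before to 50 bases after each annotated start site, read along the gene's strand, and 9 of the 10 genes had such a window. A heat shock element is built of alternating 3-base units; the search was for the 2-unit forms GAANNTTC and TTCNNGAA, each its own reverse complement, and for longer runs in which GAA and TTC units alternate with 2 bases between them. Of the 9 genes 7 held a match of at least 2 units and 5 held a run of at least 3 units. Other lists of related genes, described below, differed widely in their share of matches. At least 2 units stood in 60% of other HSF1-type targets with a window, 57.1% of other cytosolic HSP70 genes and 57.1% of small heat shock protein genes. Runs of at least 3 units stood in 15%, 14.3% and 0% of these, in that order. HSP90AB1, which is not among the 10 genes, also held runs of 3 units. Among the 9511 tested symbols with a window 13.7% held a match of at least 2 units and 0.473% a run of at least 3 units; over all 35116 windows these shares were 13.5% and 0.490%. Capitals mark the matched run, and positions count from the start site as base 1. Stretches from the cytosolic HSP70 and J protein genes were these.
HSPA8, chr11:123062346-123062374, minus strand, run of 3 units at -230 to -218: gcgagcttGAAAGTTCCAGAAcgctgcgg
HSPA8, chr11:123062171-123062199, minus strand, run of 3 units at -55 to -43: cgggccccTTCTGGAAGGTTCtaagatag
HSPA1A, chr6:31815426-31815455, plus strand, 2 units at -106 to -99: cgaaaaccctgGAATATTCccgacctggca
DNAJA1, chr9:33025268-33025296, plus strand, run of 3 units at 4 to 16: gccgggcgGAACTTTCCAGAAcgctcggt
DNAJB1, chr19:14518456-14518485, minus strand, 2 units at -77 to -70: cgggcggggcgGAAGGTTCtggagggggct
DNAJB1, chr19:14518426-14518455, minus strand, 2 units at -47 to -40: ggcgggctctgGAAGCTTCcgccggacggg

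Stretches from the HSP90, mitochondrial and CHORDC1 genes were these.
HSP90AA1, chr14:102087112-102087140, minus strand, run of 3 units at -88 to -76: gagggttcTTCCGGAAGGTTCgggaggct
HSPD1, chr2:197500062-197500090, minus strand, run of 4 units at -245 to -228: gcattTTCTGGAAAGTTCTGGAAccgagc
CHORDC1, chr11:90223084-90223112, minus strand, run of 5 units at -60 to -38: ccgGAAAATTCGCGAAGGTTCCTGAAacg
The run in CHORDC1 had 5 units and that in HSPD1 had 4 units. HSPH1 and HSPE1 held no match in their windows, which says only that these letters are not there. HSPE1 starts 105 bases from the upper start site of HSPD1 on the opposite strand. The stretch printed for HSPD1 is counted from its lower start site, lies downstream of the upper one and ends 289 bases before the HSPE1 start site. HSPA1A and DNAJB1 held 2-unit matches only. A match describes the letters and does not show that a factor was bound.

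**Figure D2:**
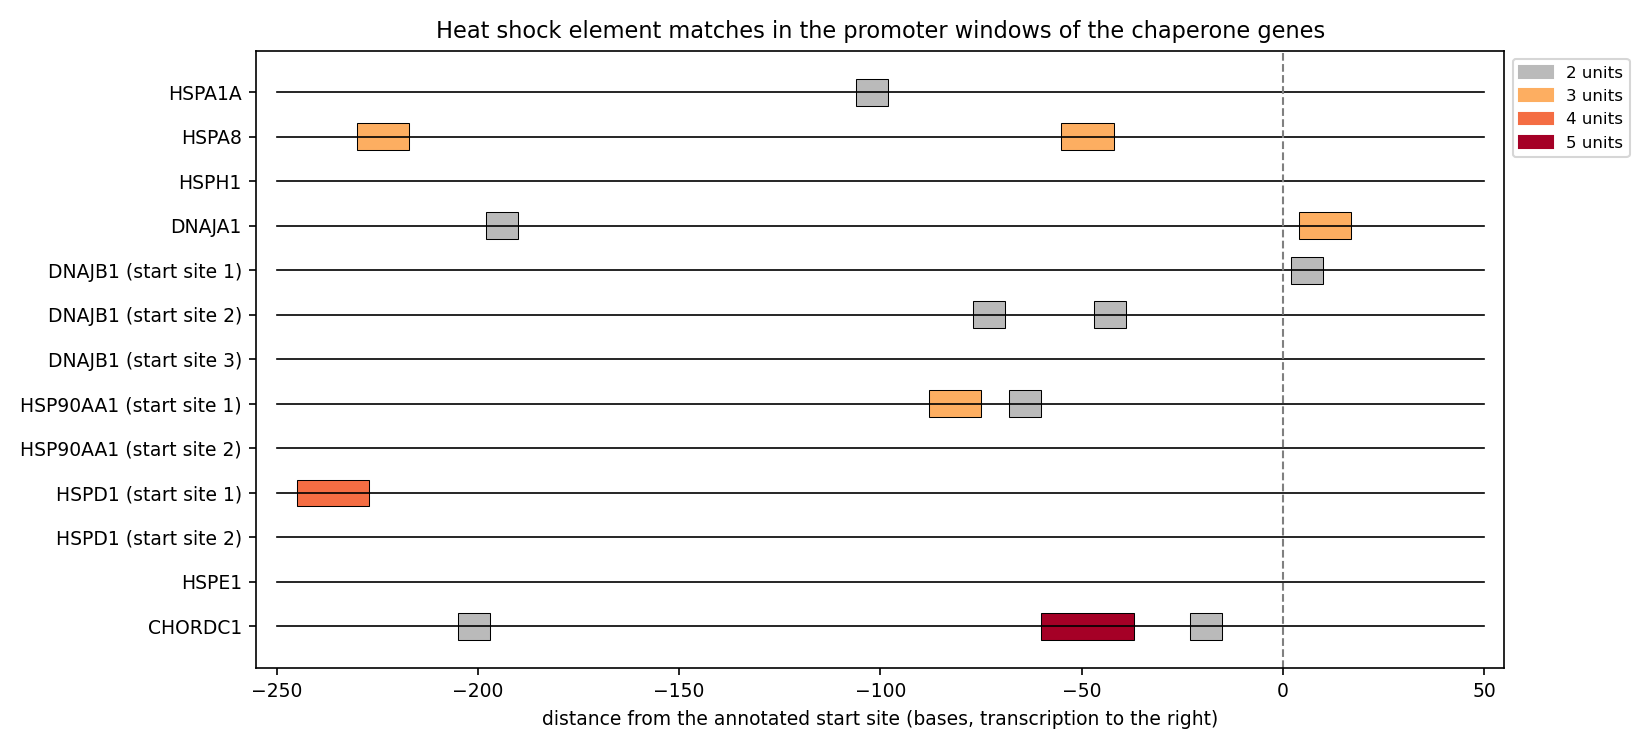
Heat shock element matches in the RefSeq promoter windows of 9 chaperone genes; each line runs from 250 bases before to 50 bases after a start site, and boxes are matches coloured by their number of units. CHORDC1 has the run of 5 units, and the windows of HSPH1 and HSPE1 have no box.

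HSPA8 (chr11:123057489-123063230, minus strand, hg38) encodes the constitutive HSP70 of the cytosol, which folds new proteins and uncoats clathrin vesicles. It had 1295, 1156 and 1222 TPM in high calcium, 1661, 1428 and 1460 TPM in TGFb3, and 2295, 2317 and 2193 TPM in the controls. The 3 groups did not overlap, with high calcium lowest. HSPA8 fell to 54% of the control mean in high calcium (log2 difference -0.89 ± 0.0640, standard error, adjusted p = 1.21e-06) and to 66.8% in TGFb3 (-0.58 ± 0.0640, adjusted p = 2.63e-05). The gene hosts the small nucleolar RNA genes SNORD14C, SNORD14D and SNORD14E, and 17 annotated pseudogene copies together had at most 1.88 TPM in any sample.

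HSPA1A (chr6:31815464-31817946, plus strand) encodes the stress-inducible HSP70. It had 33.2, 37.6 and 36.2 TPM in high calcium, 43.1, 40.5 and 29.1 TPM in TGFb3, and 47.1, 47.3 and 53.0 TPM in the controls. Every treated sample lay below every control, the TGFb3 samples spread the most, and the treatments overlapped. HSPA1A fell to 72.6% of the control mean in high calcium (log2 difference -0.45 ± 0.125, adjusted p = 0.010) and to 76.5% in TGFb3 (-0.40 ± 0.125, adjusted p = 0.020). Without control replicate 3 the call in TGFb3 was lost (log2 difference -0.34, adjusted p = 0.0694), and it was lost too when no filter on low values was used (adjusted p = 0.0638); over all settings its adjusted p ran from 0.00557 to 0.0694.

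HSPA1B lies 9789 bases from HSPA1A and encodes a nearly identical protein, so the split of reads between the pair is uncertain. The sum of the pair was 63.9, 70.2 and 66.5 TPM in high calcium, 72.7, 67.8 and 52.5 TPM in TGFb3, and 81.3, 84.7 and 93.1 TPM in the controls. The sum was therefore lower in every treated sample than in every control. HSPA1B alone averaged 31.2 ± 1.23 TPM in high calcium, 26.8 ± 3.18 TPM in TGFb3 and 37.2 ± 2.99 TPM in the controls, and fell in both (log2 difference -0.25 ± 0.0882, adjusted p = 0.0326 in high calcium; -0.46 ± 0.0882, adjusted p = 0.00114 in TGFb3). The call of HSPA1B in high calcium was lost without control replicate 2 (adjusted p = 0.0763) or 3 (0.11) and without high calcium replicate 1 (0.0811) or 3 (0.0891), and also with no filter on low values (0.0725), with no variance trend (0.0503) or with a replicate block (0.0548), within a range of 0.000676 to 0.11 over all settings. HSPA6, another inducible HSP70 gene that is strictly stress-dependent, stayed between 0.0597 and 0.666 TPM in all 9 samples and was not tested.

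HSPH1 (chr13:31134974-31162388, minus strand) encodes HSP110, a nucleotide exchange factor that resets HSP70 and takes part in pulling proteins out of aggregates. It had 80.1, 77.3 and 86.4 TPM in high calcium, 94.1, 102 and 96.6 TPM in TGFb3, and 161, 156 and 166 TPM in the controls. All 3 groups were apart and high calcium was lowest. It fell to 50.5% of the control mean in high calcium (log2 difference -0.98 ± 0.0505, adjusted p = 1.24e-07) and to 60.5% in TGFb3 (-0.72 ± 0.0505, adjusted p = 1.06e-06).

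DNAJA1 (chr9:33025211-33039907, plus strand) encodes a farnesylated J protein that feeds clients to HSP70. It had 235, 227 and 235 TPM in high calcium, 355, 341 and 325 TPM in TGFb3, and 523, 534 and 514 TPM in the controls. The order of the groups was the same as for HSPA8 and HSPH1, with wide gaps between them. It fell to 44.4% of the control mean in high calcium (log2 difference -1.17 ± 0.0398, adjusted p = 7.98e-09) and to 65% in TGFb3 (-0.62 ± 0.0398, adjusted p = 5.68e-07).

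DNAJB1 (chr19:14514770-14529770, minus strand) encodes HSP40, the J protein that pairs with inducible HSP70 after heat and also restrains HSF1. It had 141, 141 and 140 TPM in high calcium, 119, 116 and 110 TPM in TGFb3, and 116, 118 and 121 TPM in the controls. High calcium stood above both other groups, and TGFb3 overlapped the controls. The difference was 0.25 ± 0.0399 in high calcium (adjusted p = 0.000326) and -0.04 ± 0.0399 in TGFb3 (adjusted p = 0.406, not called), both as log2 differences. Relative to the median of all symbols the high calcium value was 0.03: the call was lost when TPM were rescaled by median ratios (log2 difference 0.01, adjusted p = 0.789) or when the mitochondrial genome was left out (0.06, adjusted p = 0.247), within a range of 0.000208 to 0.789 over all settings. On those scales only CRYAB remained called higher. Under quantile normalisation DNAJB1 kept its call. TECR, a gene on the opposite strand, overlaps DNAJB1 and had 61.2 to 64.1 TPM in high calcium, 44.6 to 51.1 TPM in TGFb3 and 48.0 to 52.4 TPM in the controls; its part in the DNAJB1 values was not tested.

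HSP90AA1 (chr14:102080738-102139699, minus strand) encodes the stress-inducible HSP90 of the cytosol, which matures kinases and steroid receptors. It had 742, 766 and 794 TPM in high calcium, 890, 910 and 895 TPM in TGFb3, and 2192, 2259 and 2058 TPM in the controls. Both treatments lay far below the controls, with high calcium a little below TGFb3. It fell to 35.4% of the control mean in high calcium (log2 difference -1.50 ± 0.0442, adjusted p = 3.27e-09), the largest fall among the 10 genes there, and to 41.4% in TGFb3 (-1.27 ± 0.0442, adjusted p = 1.12e-08).

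CHORDC1 (chr11:90201160-90223364, minus strand) encodes a zinc-binding HSP90 co-chaperone whose gene is a sensitive HSF1 target. It had 33.1, 27.2 and 28.8 TPM in high calcium, 36.9, 36.9 and 36.8 TPM in TGFb3, and 63.3, 72.2 and 72.4 TPM in the controls. The 3 groups were apart, and the TGFb3 samples were nearly equal. It fell to 42.9% of the control mean in high calcium (log2 difference -1.20 ± 0.0760, adjusted p = 5.17e-07) and to 53.2% in TGFb3 (-0.89 ± 0.0760, adjusted p = 4.26e-06).

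HSPD1 (chr2:197486581-197516737, minus strand) encodes HSP60, the chaperonin of the mitochondrial matrix. It had 1317, 1313 and 1356 TPM in high calcium, 719, 724 and 762 TPM in TGFb3, and 1800, 1827 and 1722 TPM in the controls. Here TGFb3 was the lowest group, the reverse of the order in HSPA8, HSPH1, DNAJA1, HSP90AA1 and CHORDC1. HSPD1 fell to 74.5% of the control mean in high calcium (log2 difference -0.42 ± 0.0400, adjusted p = 8.51e-06) and to 41.2% in TGFb3 (-1.28 ± 0.0400, adjusted p = 5.89e-09).

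HSPE1 (chr2:197499994-197503457, plus strand) encodes HSP10, the lid of the HSPD1 chamber, and shares its promoter region head to head with HSPD1. It had 282, 296 and 288 TPM in high calcium, 218, 224 and 215 TPM in TGFb3, and 662, 677 and 575 TPM in the controls. As for HSPD1, TGFb3 was lowest and the groups did not overlap. HSPE1 fell to 45.3% of the control mean in high calcium (log2 difference -1.14 ± 0.0579, adjusted p = 1.13e-07) and to 34.3% in TGFb3 (-1.53 ± 0.0579, adjusted p = 1.89e-08), the largest fall among the 10 genes there. The HSPE1 and HSPD1 genes overlap on opposite strands, a readthrough transcript HSPE1-MOB4 had 0 to 13.4 TPM, and 26 annotated pseudogene copies of HSPE1 together reached at most 4.36% of its TPM in any sample.

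CRYAB (chr11:111908565-111923722, minus strand) encodes alpha-B crystallin, a small heat shock protein of lens and muscle that also occurs in epithelial cells. It had 15.7, 17.7 and 16.4 TPM in high calcium, 8.97, 11.5 and 7.58 TPM in TGFb3, and 1.13, 0.812 and 1.52 TPM in the controls. It was the only one of the 10 genes whose treated samples all lay above the controls in both treatments. CRYAB rose 14.4-fold in mean TPM in high calcium (log2 difference 3.04 ± 0.157, adjusted p = 1.22e-07) and 8.1-fold in TGFb3 (2.26 ± 0.157, adjusted p = 9.69e-07). The log2 values understate the change because 1 TPM was added before taking logarithms, and with 0.1 TPM added the high calcium difference reached 3.77. C11orf52, which overlaps CRYAB on the opposite strand, had 5.48 to 6.95 TPM in high calcium, 3.98 to 5.03 TPM in TGFb3 and 1.31 to 3.41 TPM in the controls; its part in the CRYAB values was not tested. HSPB2, the small heat shock protein gene that also overlaps CRYAB, reached at most 0.217 TPM. Among muscle genes the values were mixed. MYL2 was not on the marker list and was picked because its profile lay near that of CRYAB over these samples. A rise like that of CRYAB was therefore set by this choice. MYL2, a myosin light chain gene of muscle, had 25.0, 26.1 and 24.2 TPM in high calcium, 8.34, 10.4 and 8.12 TPM in TGFb3, and 1.53, 1.62 and 1.12 TPM in the controls, and rose in both (log2 difference 3.43, adjusted p = 6.8e-09 in high calcium; 2.03, adjusted p = 2.37e-07 in TGFb3). Of the muscle markers, MYH7 was listed at 0 in all 9 samples, ACTA1 reached at most 0.0951 TPM and DES at most 0.131 TPM, and of the lens crystallins CRYBB2 reached at most 0.453 TPM and CRYGS 2.03 TPM. The part of these muscle and lens genes' cell types in the CRYAB values was not tested.

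Set directly against each other, the treatments differed in 9 of the 10 genes. High calcium was higher than TGFb3 for HSPD1, HSPE1, DNAJB1 and CRYAB and lower for HSPA8, HSPH1, DNAJA1, HSP90AA1 and CHORDC1, while HSPA1A was not called. Among all tested symbols 50.4% were called higher and 16.2% lower in this comparison, and 53.1% were higher and 18.1% lower without overlap of the samples, so the 40% of the 10 genes called higher lies under the background share and the 50% called lower lies above it. The largest difference was that of HSPD1 (log2 difference 0.85 ± 0.0400, adjusted p = 5.69e-08), followed by CRYAB (0.78 ± 0.157, adjusted p = 0.00138) and DNAJA1 (-0.55 ± 0.0398, adjusted p = 1.23e-06). Relative to the median of all symbols, HSPD1 differed by 0.59 and DNAJA1 by -0.81, but HSPE1 by 0.13 and DNAJB1 by 0.03. When TPM were rescaled by median ratios, HSPE1 (log2 difference 0.11, adjusted p = 0.196) and DNAJB1 (0.01, adjusted p = 0.911) lost their calls and HSPA1A was called lower (-0.34, adjusted p = 0.0402), which left 2 genes higher and 6 lower. HSPA1A was also called lower without TGFb3 replicate 3 (-0.22, adjusted p = 0.0261), in a range of 0.0261 to 0.977 over all settings. On that scale 4211 symbols were called higher and 4216 lower, 50% of calls higher in place of 75.7%; for high calcium against control the counts were 4240 and 4174, or 50.4% higher in place of 73%.

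**Figure D3:**
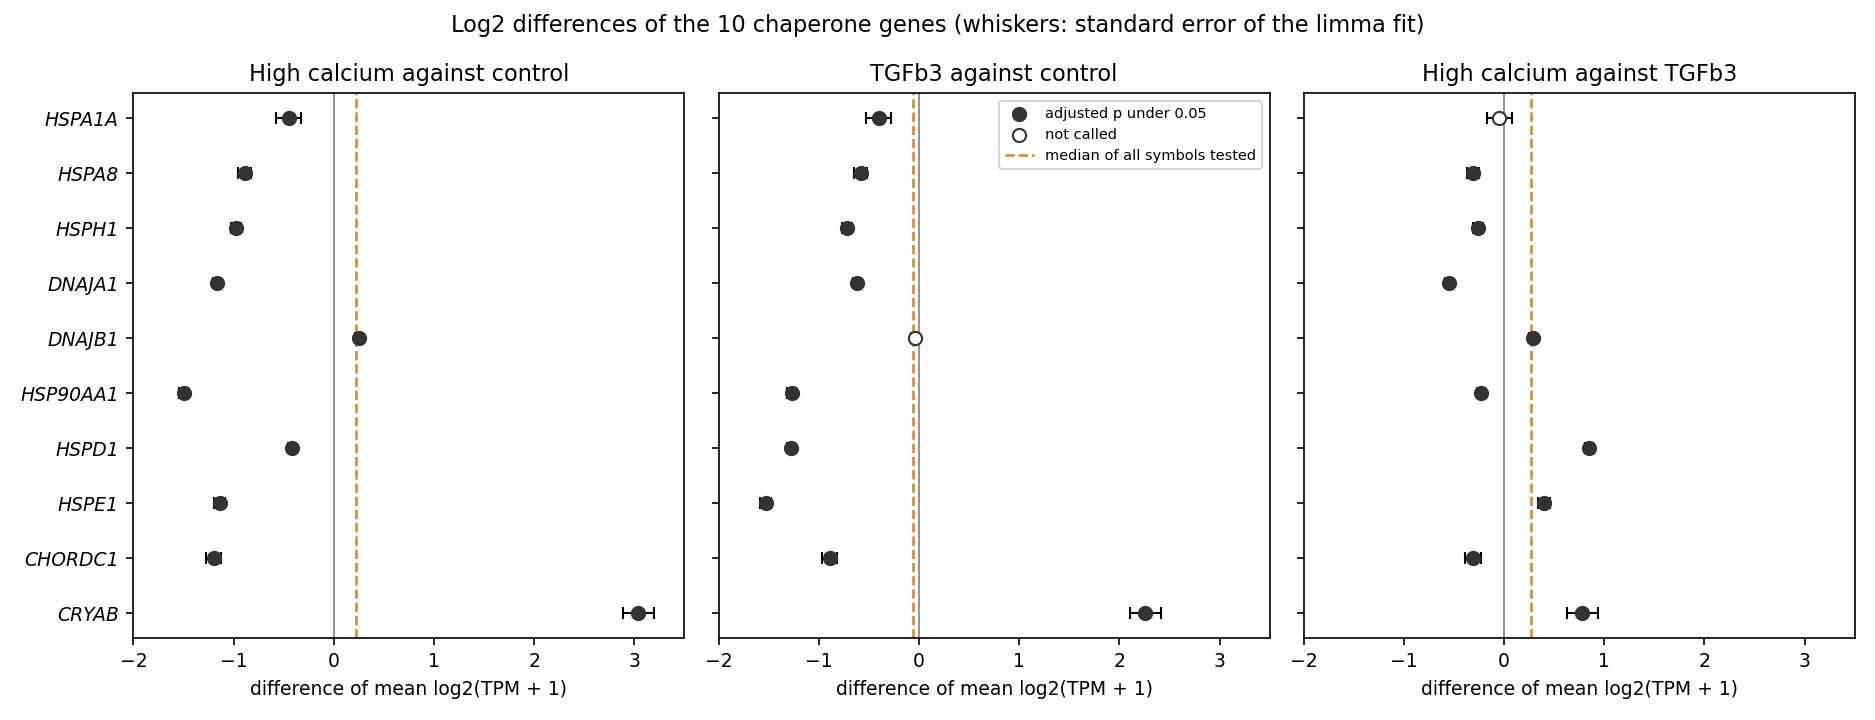
Log2 differences of the 10 chaperone genes in the 3 comparisons, as the difference of mean log2(TPM + 1) with its standard error; filled points passed an adjusted p under 0.05 and the dashed line is the median of all tested symbols. DNAJB1 sits on the dashed line in all 3 panels, and HSPD1 has -0.42 in high calcium against control, -1.28 in TGFb3 against control and 0.85 in high calcium against TGFb3.

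The order of the 10 levels shifted with treatment. TPM is per length, so levels of different genes can be set side by side on this scale. In high calcium HSPD1 was highest at 1329 TPM, ahead of HSPA8 at 1224, HSP90AA1 at 767, HSPE1 at 289, DNAJA1 at 233, DNAJB1 at 141, HSPH1 at 81.3, HSPA1A at 35.7, CHORDC1 at 29.7 and CRYAB at 16.6 TPM. In TGFb3 the order by mean TPM was HSPA8, HSP90AA1, HSPD1, DNAJA1, HSPE1, DNAJB1, HSPH1, HSPA1A, CHORDC1 and CRYAB, and the ranges of HSPA1A and CHORDC1 overlapped. In the controls it was HSPA8, HSP90AA1, HSPD1, HSPE1, DNAJA1, HSPH1, DNAJB1, CHORDC1, HSPA1A and CRYAB, where the ranges of HSPA8 and HSP90AA1 overlapped. Neighbours in these orders otherwise did not overlap. Among all symbols HSPA8 ranked 112 in high calcium, 73 in TGFb3 and 39 in the controls by mean TPM, and CRYAB ranked 7319 in high calcium, 8570 in TGFb3 and 13072 in the controls.

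Ratios of partner genes within a sample do not depend on how TPM are scaled. With 3 samples against 3 the exact permutation test cannot go below p = 0.1 (two-sided), and 12 ratio comparisons were made, so no ratio could pass. HSPE1 over HSPD1, lid over chamber, was 0.214, 0.226 and 0.213 in high calcium, 0.304, 0.309 and 0.282 in TGFb3, and 0.368, 0.371 and 0.334 in the controls. No groups overlapped, and each comparison had the smallest p the test allows (exact p = 0.1, adjusted p = 0.12). The log2 ratio differed by -0.72 in high calcium and by -0.26 in TGFb3 from the controls, and by -0.45 between high calcium and TGFb3.

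The inducible against the constitutive HSP90 gene, HSP90AA1 over HSP90AB1, gave 0.507, 0.517 and 0.546 in high calcium, 0.793, 0.808 and 0.785 in TGFb3, and 1.15, 1.13 and 1.10 in the controls. HSP90AA1 was thus the more abundant of the pair in every control and the less abundant in every treated sample (exact p = 0.1, adjusted p = 0.12 in each comparison). DNAJB1 over DNAJA1 was 0.606 ± 0.0134 in high calcium, 0.338 ± 0.00282 in TGFb3 and 0.226 ± 0.00873 in the controls, again with no overlap (exact p = 0.1, adjusted p = 0.12 in each). HSPA1A over HSPA8 was 0.0293 ± 0.00346 in high calcium, 0.0247 ± 0.00433 in TGFb3 and 0.0217 ± 0.00213 in the controls. That ratio overlapped between TGFb3 and the controls (exact p = 0.4, adjusted p = 0.4) and between the treatments (exact p = 0.3, adjusted p = 0.327), and not between high calcium and the controls (exact p = 0.1, adjusted p = 0.12).

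**Figure D4:**
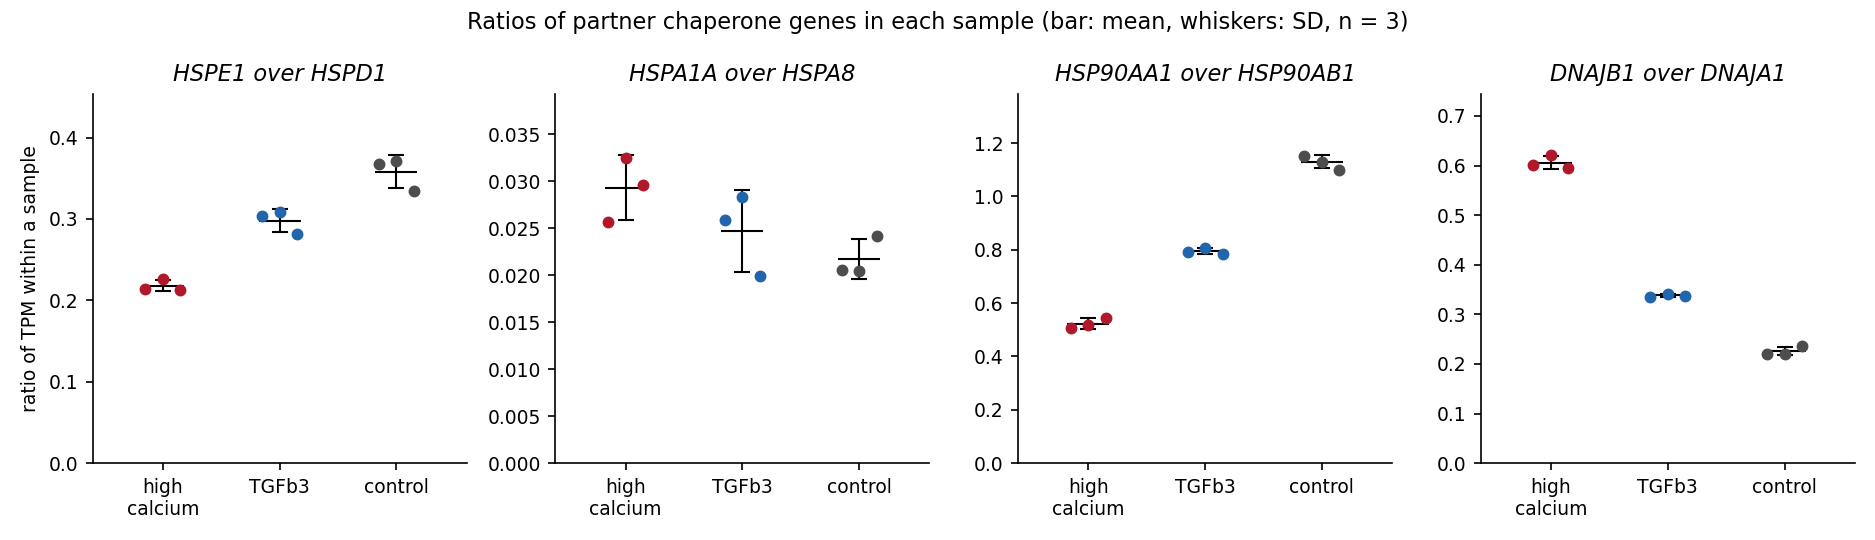
Ratios of TPM of partner chaperone genes in each sample, on linear axes that start at 0; points are samples, the bar is the mean and the whiskers are the SD (n = 3 per group). HSP90AA1 over HSP90AB1 is above 1 in the controls and 0.546 or lower in high calcium, and HSPA1A over HSPA8 is the ratio whose groups overlap.

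The list of heat shock factors and their binding proteins had 5 tested genes, of which 3 rose and 1 fell in high calcium and 2 rose and 1 fell in TGFb3. In high calcium these shares were 60% and 20%, against 46.1% and 17.0% of all tested symbols. In TGFb3 they were 40% and 20%, against 26.5% and 33.1%. HSF4 and HSF2BP averaged 0.471 and 0.911 TPM in the controls, under the filter of 1 TPM. They were tested only because of their levels in the treated samples, so their rises in these counts follow in part from the filter. HSF1, the main activator of the heat shock response, had 77.6, 80.8 and 73.4 TPM in high calcium, 49.9, 48.6 and 44.8 TPM in TGFb3, and 42.4, 45.8 and 49.7 TPM in the controls. It rose in high calcium (log2 difference 0.74 ± 0.0671, adjusted p = 6.57e-06), and in TGFb3 it overlapped the controls (0.05 ± 0.0671, adjusted p = 0.506). HSF2, a related factor that can form mixed trimers with HSF1, had 11.3, 12.3 and 13.9 TPM in TGFb3 and 19.1, 20.9 and 21.0 TPM in the controls, and fell there (-0.67 ± 0.0820, adjusted p = 6e-05). In high calcium HSF2 had 20.5, 20.1 and 22.2 TPM (0.04 ± 0.0820, adjusted p = 0.704), a difference whose sign turned with the scaling. HSF4, a factor known from the lens, had 3.04, 2.70 and 0.880 TPM in high calcium, 1.73, 1.23 and 1.32 TPM in TGFb3, and 0.402, 0.503 and 0.507 TPM in the controls. It was called higher in both (log2 difference 1.05, adjusted p = 0.00592 in high calcium; 0.72, adjusted p = 0.0391 in TGFb3), and the call in TGFb3 was lost when any single TGFb3 or control replicate was left out (adjusted p = 0.0585 to 0.113) and with no filter on low values (0.0924). The other 2 are not factors themselves but proteins that bind them: HSF2BP rose in both (1.04, adjusted p = 0.000319 in high calcium; 1.40, adjusted p = 3.99e-05 in TGFb3), and HSBP1 was the gene that fell in high calcium (-0.23, adjusted p = 0.00892). Messenger RNA of these factors says nothing about their activity, which is set largely by protein modification and binding.

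The other cytosolic HSP70 genes were also lower for the most part. In high calcium 5 of 6 tested fell and 1 rose, and in TGFb3 4 fell and 2 rose, with median log2 differences of -0.32 in high calcium and -0.55 in TGFb3. The shares called lower were 83.3% in high calcium and 66.7% in TGFb3, against 17.0% and 33.1% of all tested symbols. Those called higher were 16.7% and 33.3%, against 46.1% and 26.5%. HSPA4, an HSP110-type exchange factor, averaged 215 ± 4.24 TPM in high calcium, 176 ± 2.04 TPM in TGFb3 and 273 ± 3.34 TPM in the controls and fell in both (log2 difference -0.35 in high calcium, adjusted p = 7.85e-06; -0.63 in TGFb3, adjusted p = 1.31e-07). HSPA4L, its paralogue, averaged 50.8 ± 0.557 TPM in high calcium, 24.0 ± 1.80 TPM in TGFb3 and 63.0 ± 5.77 TPM in the controls and fell in both (log2 difference -0.30 in high calcium, adjusted p = 0.0048; -1.35 in TGFb3, adjusted p = 1.7e-07). HSPA14, a ribosome-associated member, fell by 0.77 in high calcium (adjusted p = 9.8e-06) and by 0.75 in TGFb3 (adjusted p = 1.27e-05) on the log2 scale. HSPA2 averaged 1.26 ± 0.291 TPM in high calcium, 3.85 ± 0.176 TPM in TGFb3 and 2.14 ± 0.396 TPM in the controls. It fell in high calcium (log2 difference -0.47, adjusted p = 0.0157) and rose in TGFb3 (0.64, adjusted p = 0.00338). HSPA12A rose in both (0.25, adjusted p = 0.0383 in high calcium, and 0.39, adjusted p = 0.00481 in TGFb3). Relative to the median of all symbols its high calcium value was 0.03. Under median ratio rescaling and under quantile normalisation, 0 of the 6 genes were called higher and 5 lower in high calcium. Among all tested symbols 30.4% and 28.6% were then higher, and 29.9% and 32% lower.

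Of 13 tested cytosolic J protein genes, 6 rose and 4 fell in high calcium, with a median log2 difference of -0.01. In TGFb3 3 rose and 5 fell. The shares called higher, 46.2% in high calcium and 23.1% in TGFb3, lie near the 46.1% and 26.5% of all tested symbols. Those called lower were 30.8% in high calcium and 38.5% in TGFb3, against 17.0% and 33.1%. When TPM were rescaled by median ratios, the high calcium median became -0.25, with 4 higher and 7 lower. On that scale the shares were 30.8% and 53.8%, against 30.4% and 29.9% of all tested symbols. DNAJB5 had 51.8, 44.4 and 41.4 TPM in TGFb3 and 3.33, 2.88 and 3.90 TPM in the controls, a 13.6-fold higher mean (log2 difference 3.42 ± 0.148, adjusted p = 4.48e-08). In high calcium it had 6.76, 7.90 and 5.08 TPM (0.78 ± 0.148, adjusted p = 0.00105), and the treatments differed from each other by -2.64 (high calcium against TGFb3, adjusted p = 1.91e-07). DNAJB2, a J protein that passes ubiquitinated clients to the proteasome, rose in both treatments (21.6 ± 2.76 TPM in high calcium, 28.3 ± 5.55 TPM in TGFb3 and 4.69 ± 1.26 TPM in the controls; adjusted p = 4.76e-06 for high calcium and 1.48e-06 for TGFb3). DNAJC9, a histone chaperone that recruits HSP70, fell in both, to 44.9% of control in high calcium (adjusted p = 1.37e-07) and 81% in TGFb3 (adjusted p = 0.00149).

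Among 10 HSP70 exchange factors and adaptors, 2 rose and 3 fell in high calcium, which became 1 and 5 after rescaling by median ratios, and 0 rose and 7 fell in TGFb3. Before that rescaling, 20% rose and 30% fell in high calcium, against 46.1% and 17.0% of all tested symbols. In TGFb3 0% rose and 70% fell, against 26.5% and 33.1%. After that rescaling, 10% rose and 50% fell in high calcium, against 30.4% and 29.9% of all tested symbols. STIP1, the adaptor that bridges HSP70 and HSP90, averaged 174 ± 7.03 TPM in high calcium, 160 ± 4.67 TPM in TGFb3 and 308 ± 14.5 TPM in the controls, and fell in both (log2 difference -0.82 in high calcium, adjusted p = 2.53e-07; -0.93 in TGFb3, adjusted p = 1.15e-07). BAG2 fell too, to 62.2% of control in high calcium (adjusted p = 5.92e-05) and 41.4% in TGFb3 (adjusted p = 8.51e-07). BAG3, an HSF1 target that steers HSP70 clients to autophagy, was not called in either treatment: it had 64.1, 65.9 and 66.8 TPM in high calcium, 65.1, 63.8 and 57.8 TPM in TGFb3, and 57.6, 63.7 and 60.2 TPM in the controls. Its log2 difference was 0.12 in high calcium (adjusted p = 0.0956), with a sign that turned under other scalings, and 0.04 in TGFb3 (adjusted p = 0.568).

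Most of the tested genes for HSP90 and its co-chaperones fell. Of 13 tested, 8 fell, 2 rose and 3 were not called in high calcium, and 10 fell, 0 rose and 3 were not called in TGFb3, with median log2 differences of -0.39 in high calcium and -0.74 in TGFb3. The shares called lower were 61.5% in high calcium and 76.9% in TGFb3, against 17.0% and 33.1% of all tested symbols. Those called higher were 15.4% and 0%, against 46.1% and 26.5%. The 2 that rose in high calcium were CDC37L1 (log2 difference 0.55, adjusted p = 9.55e-06) and UNC45A, a chaperone of myosin (0.42, adjusted p = 0.000509). HSP90AB1, the constitutive cytosolic HSP90, had 1462, 1482 and 1454 TPM in high calcium, 1123, 1125 and 1140 TPM in TGFb3, and 1914, 1991 and 1874 TPM in the controls. It fell less than HSP90AA1 in both (log2 difference -0.39 ± 0.0363, adjusted p = 7.23e-06 in high calcium; -0.77 ± 0.0363, adjusted p = 7.56e-08 in TGFb3), which is the difference that the ratio of the pair measures. AHSA1, which speeds the HSP90 ATPase, fell to 57.3% of control in high calcium (adjusted p = 7.56e-07) and 48.4% in TGFb3 (adjusted p = 1.34e-07). CACYBP, an adaptor that binds calcyclin and ubiquitin ligases, fell to 43.7% in high calcium (adjusted p = 1.85e-08) and 48.8% in TGFb3 (adjusted p = 5.57e-08). FKBP4, an immunophilin of steroid receptor complexes, fell to 69.4% in high calcium (adjusted p = 3e-06) and 43.4% in TGFb3 (adjusted p = 1.33e-08). FKBP5, a related immunophilin whose gene is a glucocorticoid target, fell to 53.1% in high calcium (adjusted p = 3.32e-08) and 59.9% in TGFb3 (adjusted p = 1.46e-07). The medium of all 3 groups held hydrocortisone, and its part in the FKBP5 values was not tested.

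The CCT chaperonin, which folds actin and tubulin, and its partner prefoldin gave 14 tested genes. Of these 9 fell and 2 rose in high calcium, and 12 fell and 0 rose in TGFb3. The shares called lower were 64.3% in high calcium and 85.7% in TGFb3, against 17.0% and 33.1% of all tested symbols. Those called higher were 14.3% and 0%, against 46.1% and 26.5%. After rescaling by median ratios high calcium had 12 lower and 0 higher. Those shares were 85.7% and 0%, against 29.9% and 30.4% of all tested symbols on that scale. CCT5, a ring subunit, averaged 249 ± 9.88 TPM in high calcium, 220 ± 5.39 TPM in TGFb3 and 401 ± 38.6 TPM in the controls (log2 difference -0.68 in high calcium, adjusted p = 7.72e-06; -0.86 in TGFb3, adjusted p = 1.45e-06). TCP1, another ring subunit, fell to 72.2% of control in high calcium (adjusted p = 2.1e-06) and 59% in TGFb3 (adjusted p = 8.27e-08).

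HSPB1, which encodes HSP27, was the only gene of the small heat shock protein list besides CRYAB that was tested. It had 161, 165 and 149 TPM in high calcium, 837, 723 and 660 TPM in TGFb3, and 205, 194 and 235 TPM in the controls. The groups were apart: HSPB1 rose 3.5-fold in TGFb3 (log2 difference 1.80 ± 0.0918, adjusted p = 1.28e-07), fell to 74.7% of control in high calcium (-0.42 ± 0.0918, adjusted p = 0.00275), and differed by -2.22 between high calcium and TGFb3 (adjusted p = 2.44e-08). CRYAB was higher in high calcium than in TGFb3, and HSPB1 was lower.

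The remaining mitochondrial chaperones and proteases mostly fell in TGFb3, where 12 of 16, or 75%, were called lower and 0 higher, against 33.1% and 26.5% of all tested symbols. In high calcium 7 of 16 rose and 3 fell; these shares, 43.8% and 18.8%, lie near the 46.1% and 17.0% of all tested symbols. The counts in high calcium became 3 higher and 7 lower after rescaling by median ratios. Those shares were 18.8% and 43.8%, against 30.4% and 29.9% of all tested symbols on that scale. Between high calcium and TGFb3 14 of 16 were higher and 0 lower (87.5% and 0%, against 50.4% and 16.2% of all tested symbols). After that rescaling 11 were higher and 0 lower (68.8% and 0%, against 30.1% and 30.2%). HSPA9, the mitochondrial HSP70 that pulls in and folds imported proteins, had 751, 738 and 766 TPM in high calcium, 337, 340 and 345 TPM in TGFb3, and 742, 731 and 699 TPM in the controls. It fell in TGFb3 (log2 difference -1.08 ± 0.0354, adjusted p = 7.76e-09); its 0.05 in high calcium was not called (adjusted p = 0.205) and turned to -0.19 under median ratio rescaling (adjusted p = 0.00544, in a range of 0.00544 to 0.471 over all settings). TRAP1, the mitochondrial HSP90, fell to 85% of control in high calcium (adjusted p = 0.000722) and to 34.5% in TGFb3 (adjusted p = 2.63e-09). LONP1, a matrix protease, averaged 90.2 ± 1.89 TPM in high calcium, 31.8 ± 1.58 TPM in TGFb3 and 52.6 ± 2.31 TPM in the controls, so it rose in high calcium (log2 difference 0.77, adjusted p = 6.77e-07) and fell in TGFb3 (-0.71, adjusted p = 1.22e-06). Summed RNA of the mitochondrial genome itself was lower in high calcium only, as given above. With it left out of the TPM, 4 of the 16 were higher and 6 lower in high calcium, and 0 higher and 12 lower in TGFb3. In high calcium these shares were 25% and 37.5%, against 32.3% and 26.4% of all tested symbols. For TGFb3 they were 0% and 75%, against 26.1% and 32.5%. HSPA9 then had a log2 difference of -0.14 in high calcium (adjusted p = 0.00687). Beyond this effect on the scale, the part of the mitochondrial genome's RNA in these values was not tested.

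The chaperones of the endoplasmic reticulum went the other way. All 18 tested rose in high calcium and 15 of 18 rose in TGFb3, with median log2 differences of 1.97 in high calcium and 0.40 in TGFb3. These shares were 100% and 83.3%, against 46.1% and 26.5% of all tested symbols called higher. HSPA5, the HSP70 of that compartment, had 2971, 2949 and 2966 TPM in high calcium, 417, 410 and 389 TPM in TGFb3, and 294, 307 and 294 TPM in the controls (log2 difference 3.31 ± 0.0377 in high calcium, adjusted p = 1.53e-11; 0.44 ± 0.0377 in TGFb3, adjusted p = 4.4e-06). HSPA8 and HSPA5 therefore changed places: HSPA5 exceeded HSPA8 in every high calcium sample and lay under it in every other sample, on the TPM scale. DNAJB9, a J protein of the same compartment, rose to 79.3 ± 0.273 TPM in high calcium and 16.9 ± 0.714 TPM in TGFb3, against 10.4 ± 0.653 TPM in the controls (adjusted p = 3.97e-10 for high calcium and 5.89e-06 for TGFb3). HSPA5, HSP90B1 and CALR together held 11910 ± 94.4 TPM in high calcium, 2655 ± 53.3 TPM in TGFb3 and 1835 ± 46.4 TPM in the controls, in contrast to the 10 cytosolic and mitochondrial genes.

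A wider list of 24 HSF1-type target genes, some of which stand in the lists above, had 13 lower and 4 higher in high calcium and 14 lower and 6 higher in TGFb3, with median log2 differences of -0.22 in high calcium and -0.45 in TGFb3. The shares called lower were 54.2% in high calcium and 58.3% in TGFb3, against 17.0% and 33.1% of all tested symbols. Those called higher were 16.7% and 25%, against 46.1% and 26.5%, so the share higher in TGFb3 lies near that of all tested symbols. Members of this list that rose in both included ZFAND2A, a proteasome-associated protein induced by arsenite and heat (33.7 ± 3.13 TPM in high calcium, 19.7 ± 1.80 TPM in TGFb3 and 13.0 ± 0.922 TPM in the controls; adjusted p = 8.73e-07 for high calcium and 0.000342 for TGFb3).

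**Figure D5:**
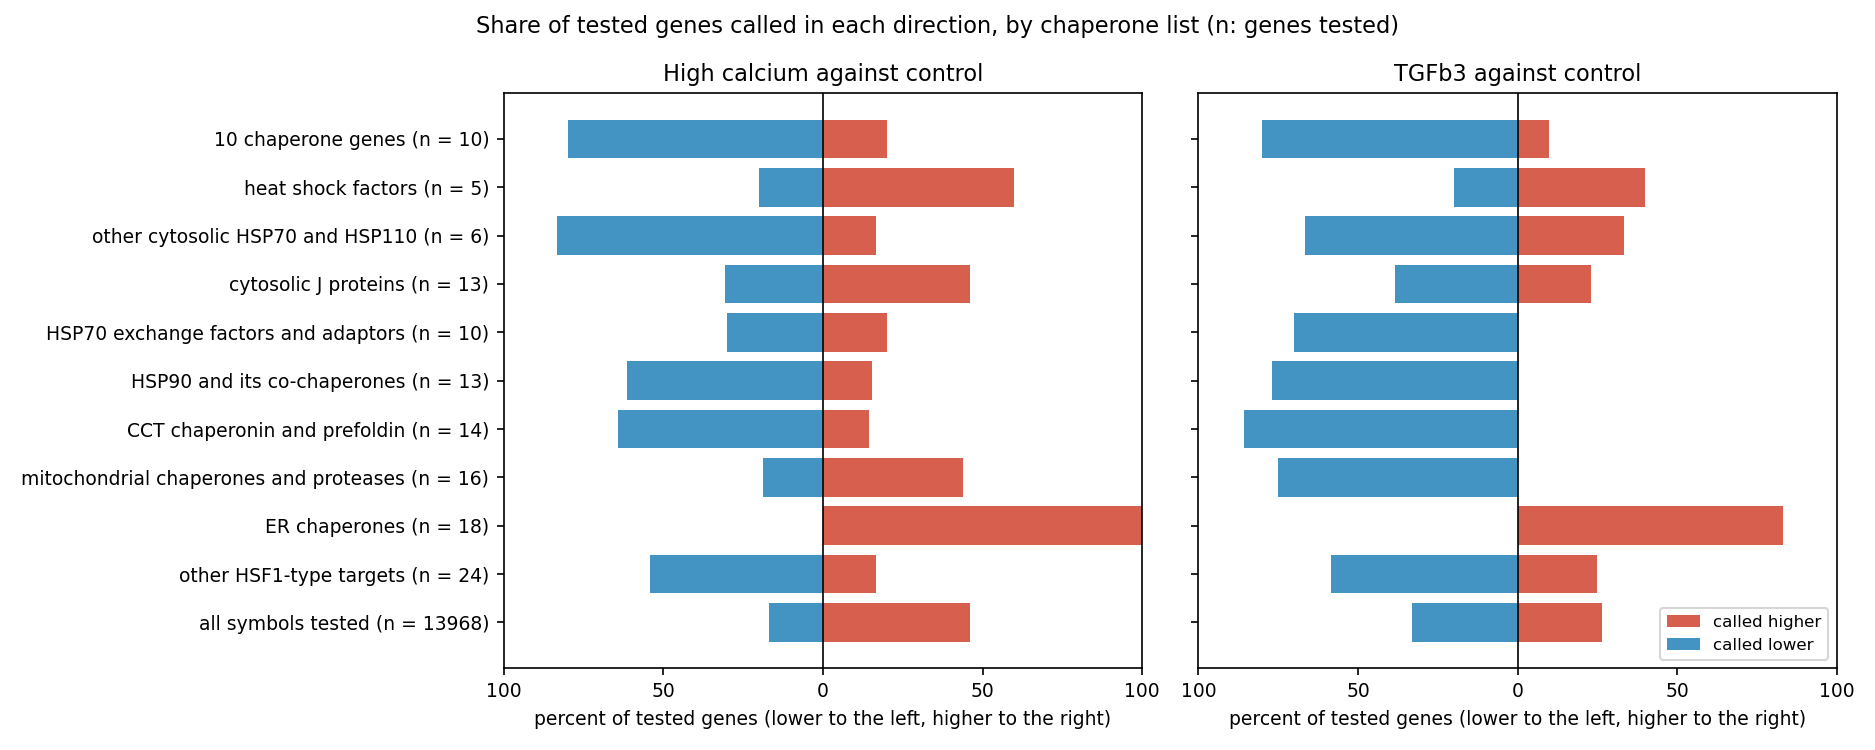
Percent of tested genes called higher (to the right) and lower (to the left) in each list of chaperone genes, with high calcium against control on the left and TGFb3 against control on the right; n is the number of genes tested. The 10 chaperone genes have 80% lower in both panels, and the 18 genes of the endoplasmic reticulum have 100% higher in high calcium and 83.3% higher in TGFb3. All tested symbols have 46.1% higher and 17.0% lower in high calcium, and 26.5% higher and 33.1% lower in TGFb3.

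Profiles like those of 3 of the 10 genes were sought over the 9 samples among 8549 symbols averaging 10 TPM or more, by the root mean square difference of log2(TPM + 1) after the control mean of each gene was subtracted. Nearest to HSPA8 were SNRPG (0.0834), U2AF2 (0.0863), SMC1A (0.0865), EXOSC3 (0.0941) and ECT2 (0.0966). Nearest to HSPD1 were BRIX1 (0.0529), NAF1 (0.0719), PPIF (0.0750), BZW2 (0.0783) and SCLY (0.0863). Nearest to CRYAB, and less near, were KDELR3 (0.255), MYL2 (0.326), IL32 (0.349), GSN (0.373) and CXCL8 (0.386). The measure describes these 9 samples, which share their libraries, and says nothing of shared control.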

How the data were processed

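Paired reads of 101 bp were made from Trizol-extracted RNA, per the labels' protocols. The submitters' processing notes name HISAT2 and hg38; the version, the program that made the TPM values, the annotation and strandedness were not given in the sources used here, so reads of overlapping or near-identical genes may be split in ways not checked here. The authors deposited 1 table of TPM for 58288 entries, each sample summing to 1000000; 1932 entries sharing 253 symbols were summed. Depth is unknown. Log2(TPM + 1) was tested for symbols averaging 1 TPM or more, with all 9 samples in 1 limma 3.58.1 fit (R 4.3.3, variance trend, two-sided, Benjamini-Hochberg over all tested symbols). The fit was also run on simulated data with few changed symbols and no shift of the scale. That run cannot speak for the wide changes and the shift in scale seen here. Coordinates are hg38 from GENCODE release 29; promoters are RefSeq. Members, gene lists and tests were chosen with earlier results of these data known. Named genes are all members, up to 4 called genes with the largest difference per list and comparison, and HSF1, HSF2, HSPA1B, HSPA6, HSP90AB1, HSPB1, HSPA9, TRAP1, BAG3 and HSPA5; not every gene so picked is named. The alternatives covered pseudocount, filter, scaling, model and left-out replicates. Python 3.11.15, pandas 2.3.3, scipy 1.17.1 and matplotlib 3.10.9 were used.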

Additional observations from a re-analysis of the deposited data

How the results depend on the processing

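Over 21 alternative fits, 617 of 630 log2 differences of the 10 genes kept their direction and side of the threshold, 7 lost their call, 2 gained one and 4 changed sign. The number of the 10 genes called higher in high calcium against control was 1 under median ratio rescaling and 1 with the mitochondrial genome left out (2 as reported), and that in high calcium against TGFb3 was 2 under median ratio rescaling (4 as reported); the cause of these moves was not tested. HSPA1A in high calcium against TGFb3 turned to 0.07 when HSPA1A and HSPA1B were summed, an alternative chosen after seeing the data, to 0.05 without TGFb3 replicate 1 and to 0.01 without TGFb3 replicate 2, and was called at -0.22 (adjusted p = 0.0261) without TGFb3 replicate 3. DNAJB1 in TGFb3 against control turned to 0.01 under median ratio rescaling. Among other genes, HSF1 in TGFb3 against control turned to -0.00062 without control replicate 1, with 0.11 as its highest value when a replicate was left out. In high calcium against control, median ratio rescaling, quantile normalisation and leaving out the mitochondrial genome gave, in that order, -0.19, -0.18 and -0.15 for HSF2, -0.19, -0.12 and -0.14 for HSPA9, and -0.12, -0.06 and -0.08 for BAG3; HSF2 also turned to -0.0046 without control replicate 1 and to -0.0017 without high calcium replicate 3.

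Over all tested symbols, quantile normalisation called 3991 higher and 4464 lower in high calcium against control and 4364 higher and 4181 lower in high calcium against TGFb3; with the mitochondrial genome left out 3791 and 3468 were lower. With the replicate number as a replicate block, 2 genes were called higher and 8 lower in high calcium, 1 higher and 8 lower in TGFb3, and 4 higher and 5 lower between the treatments, so no count changed, and HSPA1B in high calcium lost its call (adjusted p = 0.0548). Samples with the same number did not deviate together (correlations -0.0747 to -0.00372 over 9 pairs, and -0.0345 to 0.0896 over 18 pairs with other numbers). This cannot tell whether samples with the same number were handled together, which the labels do not give. TPM carries no depth, so counting error could not be given, and CRYAB in the controls rests on about 1 TPM.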
